A study of Mus musculus with 6 samples.

Results

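Growth hormone reaches the liver from the pituitary and signals through a short chain of proteins, and the accessible chromatin around 9 genes of that chain is described here. The 9 genes are Ghr, Jak2, Stat5a, Stat5b, Socs2, Cish, Bcl6, Igf1 and Igfals. They were named for their place in the pathway, and their intervals are all those that overlap the gene span or the 10 kb to either side of it. That rule took 72 of the 120905 accessible intervals of the series, and 3 of the 72 were counted for both Stat5a and Stat5b, whose windows overlap. The libraries were ATAC-seq libraries, in which a transposase cuts and tags open DNA, from livers of wild-type male mice of the inbred strains C57BL/6J and 129S1/SvImJ, all on a high-fat diet, with 3 libraries of each strain. No group on another diet and no other genotype belongs to the series, and the age of the mice is not given in the sources used here. The protocol names the transposed material only by the abbreviation LMs, so bulk liver tissue is assumed from the tissue label alone, and an antibody entry (Esrrg) in every library's labels has no place in the protocol. The deposited list combined both strains and gave positions without read counts or scores, so no value below separates C57BL/6J from 129S1/SvImJ, the depth behind an interval is unknown, and an interval cannot be assigned to a cell type.

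As background, growth hormone binds its receptor, which activates the kinase JAK2, and JAK2 phosphorylates the transcription factors STAT5A and STAT5B. These move to the nucleus and switch on genes that include Igf1, the main circulating growth factor made by the liver, Igfals, which encodes the acid-labile subunit that keeps IGF1 in a stable complex in blood, and the feedback inhibitors Socs2 and Cish. BCL6 is a repressor that binds DNA motifs much like those of STAT5 and opposes it in male liver. In mouse liver the pulsatile pattern of growth hormone in males and its steadier pattern in females set many sex differences in gene expression.

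The liver label was checked against marker genes. Of 8 hepatocyte markers, such as Alb and Ttr, all 8 had an interval within 1 kb of a gene end, against 3 of 6 macrophage markers and 1 of 6 lymphocyte markers. The share over all protein-coding genes was 61.5%. In the promoter windows defined below, 2 of the 5 hepatocyte markers with an entry had an interval, against 52.1% of protein-coding genes with an entry. The counts were 1 of 3 for macrophage and 0 of 3 for lymphocyte markers. Markers of the other cell types were not all without intervals: 4 of 6 macrophage and 3 of 6 lymphocyte markers had at least 1 in the span or within 10 kb. The macrophage genes Adgre1 and C1qa and the lymphocyte genes Cd3d, Cd8a and Ms4a1 had none. The macrophage gene Cd68 had 5 (percentile 96.7 among genes of similar length), Marco and Spi1 4 each, and the lymphocyte genes Cd4 and Ptprc 6 (percentile 89.8) and 8 (50.3).

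The sequences that show where the intervals sat on the promoters of the axis are printed first. RefSeq gave 14 transcript starts for 8 of the 9 genes on GRCm38.p6, the assembly of mm10, each with a window of 250 bases before the start and 50 from the start on. Starts are numbered along the direction of transcription, and Socs2 had no entry. Each window below reads 5′ to 3′ on the gene's strand, and its capitals mark the bases that lay under an accessible interval. Ghr start 1 is chr15:3583303-3583602 on the minus strand, Jak2 start 1 is chr19:29251553-29251852 on the plus strand, and Stat5a start 2 is chr11:100860234-100860533 on the plus strand. Stat5b start 1 is chr11:100850532-100850831 and Stat5b start 2 is chr11:100822521-100822820, both on the minus strand. Cish start 1 is chr9:107296409-107296708 and Igfals start 3 is chr17:24878497-24878796, both on the plus strand. These 7 windows were chosen because an interval covered the start or came within 100 bp of it.
Ghr start 1: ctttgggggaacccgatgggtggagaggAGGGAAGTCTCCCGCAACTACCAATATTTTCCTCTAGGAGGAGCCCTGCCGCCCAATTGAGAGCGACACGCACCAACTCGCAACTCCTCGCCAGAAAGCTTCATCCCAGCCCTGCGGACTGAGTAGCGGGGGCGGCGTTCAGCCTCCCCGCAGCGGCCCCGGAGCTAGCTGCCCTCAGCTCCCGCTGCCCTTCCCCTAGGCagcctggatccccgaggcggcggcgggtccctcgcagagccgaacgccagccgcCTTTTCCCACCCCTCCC
Jak2 start 1: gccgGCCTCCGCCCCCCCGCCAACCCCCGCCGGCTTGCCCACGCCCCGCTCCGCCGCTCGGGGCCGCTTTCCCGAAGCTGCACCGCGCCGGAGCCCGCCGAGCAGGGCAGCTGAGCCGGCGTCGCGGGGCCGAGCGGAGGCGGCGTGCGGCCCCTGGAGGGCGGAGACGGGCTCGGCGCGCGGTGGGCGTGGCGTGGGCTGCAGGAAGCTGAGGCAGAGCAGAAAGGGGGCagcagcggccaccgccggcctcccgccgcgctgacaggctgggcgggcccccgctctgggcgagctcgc
Stat5a start 2: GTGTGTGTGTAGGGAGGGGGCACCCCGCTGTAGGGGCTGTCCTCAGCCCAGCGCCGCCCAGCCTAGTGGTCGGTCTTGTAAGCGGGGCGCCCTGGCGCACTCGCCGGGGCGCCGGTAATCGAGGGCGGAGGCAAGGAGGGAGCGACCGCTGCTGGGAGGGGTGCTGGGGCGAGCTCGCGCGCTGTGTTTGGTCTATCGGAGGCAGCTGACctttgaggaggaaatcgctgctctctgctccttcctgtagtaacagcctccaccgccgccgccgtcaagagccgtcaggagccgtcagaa
Stat5b start 1: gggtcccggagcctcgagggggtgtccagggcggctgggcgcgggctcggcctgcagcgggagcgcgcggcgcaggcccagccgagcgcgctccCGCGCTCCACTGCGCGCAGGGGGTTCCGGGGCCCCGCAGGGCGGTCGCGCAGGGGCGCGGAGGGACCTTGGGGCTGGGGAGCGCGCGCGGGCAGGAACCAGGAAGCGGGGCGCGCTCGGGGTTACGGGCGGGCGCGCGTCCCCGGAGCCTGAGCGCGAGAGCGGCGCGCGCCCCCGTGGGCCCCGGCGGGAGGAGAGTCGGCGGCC
Stat5b start 2: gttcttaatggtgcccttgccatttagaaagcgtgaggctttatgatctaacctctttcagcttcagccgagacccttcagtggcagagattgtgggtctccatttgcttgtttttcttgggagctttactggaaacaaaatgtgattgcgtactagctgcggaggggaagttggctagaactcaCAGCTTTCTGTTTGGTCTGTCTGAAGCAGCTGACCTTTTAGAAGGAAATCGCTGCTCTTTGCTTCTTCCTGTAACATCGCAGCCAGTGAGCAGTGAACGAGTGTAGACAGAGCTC
Cish start 1: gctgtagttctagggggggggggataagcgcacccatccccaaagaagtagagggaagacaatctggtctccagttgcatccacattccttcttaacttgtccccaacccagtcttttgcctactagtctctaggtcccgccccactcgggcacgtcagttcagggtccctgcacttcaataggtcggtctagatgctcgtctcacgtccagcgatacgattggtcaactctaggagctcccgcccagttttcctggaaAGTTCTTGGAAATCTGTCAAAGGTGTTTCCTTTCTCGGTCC
Igfals start 3: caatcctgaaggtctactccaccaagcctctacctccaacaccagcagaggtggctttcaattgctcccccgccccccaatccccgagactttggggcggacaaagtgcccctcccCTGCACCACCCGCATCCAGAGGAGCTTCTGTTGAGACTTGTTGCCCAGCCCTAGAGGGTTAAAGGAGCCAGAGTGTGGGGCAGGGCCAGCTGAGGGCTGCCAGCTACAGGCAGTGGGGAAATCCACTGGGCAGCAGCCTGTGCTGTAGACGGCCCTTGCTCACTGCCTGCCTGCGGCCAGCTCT

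Most genes of the axis had accessible DNA at a promoter. At least 1 of a gene's windows overlapped an interval in 6 of the 8 genes with an entry, the exceptions being Bcl6 and Igf1, while 52.1% of protein-coding genes with an entry had such an interval. Counted by window, 9 of 14 overlapped an interval, against 48.4% of all promoter windows of protein-coding genes. Of the 14 starts themselves 3 lay under an interval, both starts of Stat5b and start 3 of Igfals, against 34.4% of all protein-coding starts. The 8 genes had 14 windows, and the 17492 protein-coding genes with an entry had 21263. Genes of the axis thus had more windows each in which an interval could be counted. With 8 genes these counts are a description and carry no test.

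**Figure D1:**
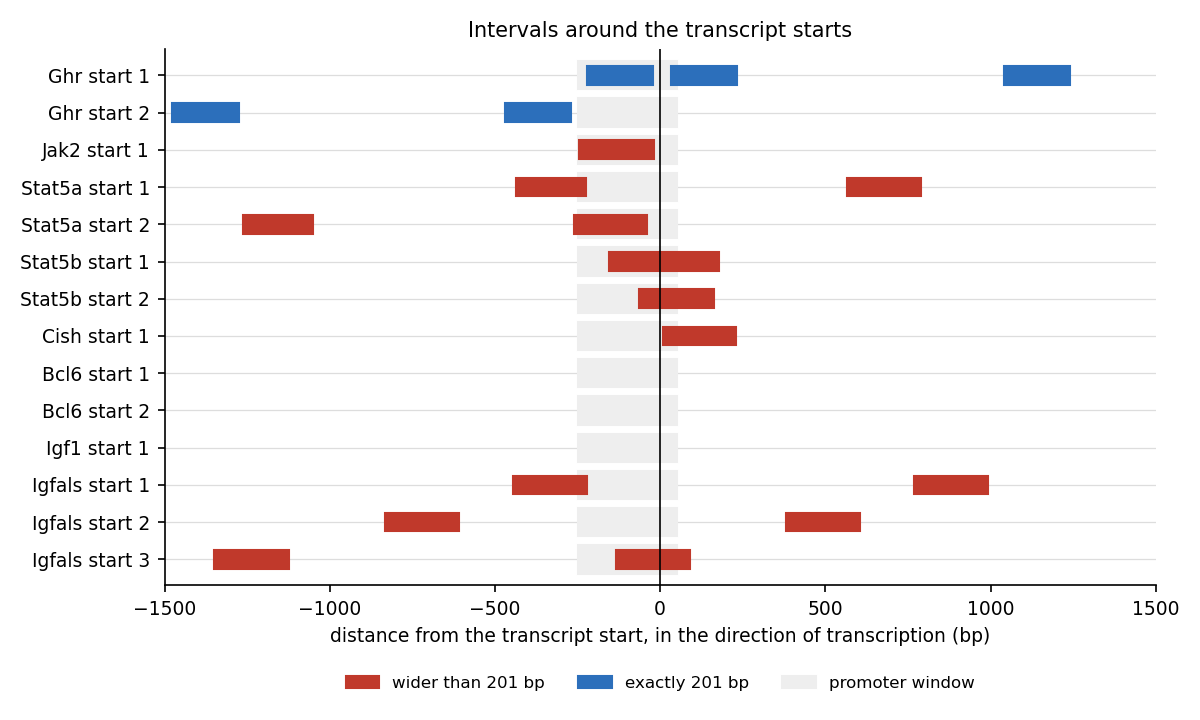
Intervals within 1500 bp of each of the 14 transcript starts, drawn to scale, with distance from the start in bp on the horizontal axis (negative is upstream) and 1 row for each start. Grey boxes are the promoter windows, red bars are intervals wider than 201 bp and blue bars are intervals of exactly 201 bp. Only the 2 starts of Stat5b and start 3 of Igfals are crossed by a bar, and the rows of Bcl6 and Igf1 hold none.

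The position of the interval relative to the start differed from gene to gene. At Ghr, the receptor gene, start 1 lay in a gap of 54 bp between a pair of 201 bp intervals. One of them was centred 122 bp upstream and the other 133 bp downstream, and together they covered 218 of the 300 bases. At Jak2, the receptor's kinase, a 227 bp interval ended 20 bp upstream of the start and covered 227 bases of a window with 81.0% G and C. At Stat5a start 2 a 222 bp interval ended 41 bp upstream of the start and covered 210 bases. At Cish, a SOCS family inhibitor, the order was reversed, since a 220 bp interval began 9 bp downstream of the start and covered 41 bases of the window.

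The remaining starts had little or no overlap. Stat5a start 1 and Igfals start 1 had 27 and 29 of 300 bases under an interval, at the far upstream edge of the window. Ghr start 2 had none, its nearest interval lying 270 bp away, and Igfals start 2 had none, its nearest lying 382 bp away. The only Igf1 start in the table was 1794 bp from the nearest interval. The nearest intervals to the Bcl6 starts were 4378 bp from start 1 and 2991 bp from start 2, and both distances are to the same 201 bp interval. RefSeq lists further predicted transcripts of Igf1 whose starts are not in the table, and the Igf1 span begins 2846 bp upstream of the start used. A 218 bp interval lay 498 bp outside that end of the span, measured to its centre.

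Interval numbers were high for gene length across most of the axis. Each gene was placed among the 500 protein-coding genes nearest to it in span length, as the percentile of its number of intervals in the span and 10 kb to either side (ties counted at their mid-rank). Of the 9 genes 8 were above the 50th percentile, against 49.7% of all protein-coding genes, and 7 were at the 75th percentile or above, against 24.6%. The median percentile of the 9 was 81.7, against 49.7 over all protein-coding genes. The trait was not particular to the axis. All 8 hepatocyte markers were above the 50th percentile and 6 at the 75th or above, with a median percentile of 84.4. All 9 genes had at least 3 intervals, while 83.9% of protein-coding genes had at least 1, so presence alone sets little apart. The windows of Stat5a and Stat5b overlap, so these genes are not independent of each other in the counts. The number at the 75th percentile or above was 4 when flanks were left out and 3 with flanks of 50 kb. The shares over all protein-coding genes at these settings were 22.4% and 25.0%, so with 50 kb the count was near the background.

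**Figure D2:**
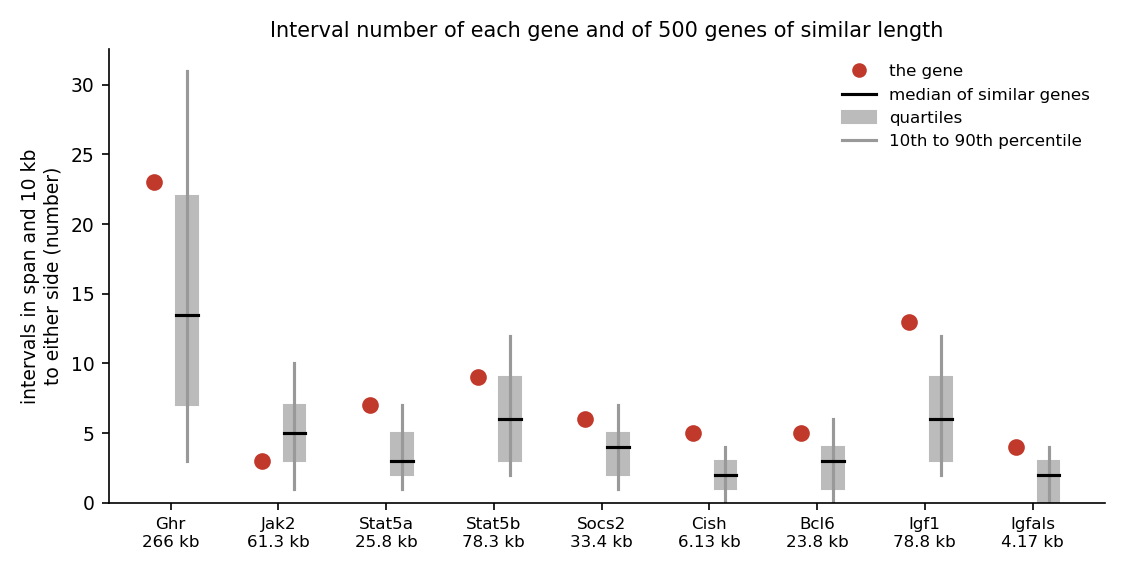
Number of intervals in the span and 10 kb to either side (vertical axis) for each of the 9 genes (red points), beside the 500 protein-coding genes nearest in span length, shown by their median (black line), quartiles (grey box) and 10th to 90th percentile (grey line). Jak2 is the only gene below the median of its comparison genes, and Igf1 and Cish lie above their 90th percentiles.

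Among the receptor and kinase genes, Ghr lay above and Jak2 below the midpoint for length. This contrast depended on the narrowest intervals. When only those wider than 201 bp were kept, both were above the midpoint, Ghr with 10 (percentile 65.2) and Jak2 with 3 (51.3). Ghr on chromosome 15 spans 266 kb (3317755 to 3583352) and had 23 intervals, of which 21 lay inside the gene and 2 upstream of it. The median of similarly long genes was 13.5 (quartiles 7 and 22), which put Ghr at percentile 77.7, with 105 of the 500 having more. Of the genes nearest to it in length, Iqgap2 had 34 and Specc1 had 8. Of the 21 inside the gene, 5, 11 and 5 lay in the first, middle and last of 3 equal parts of the span, taken from the 5′ end. A stretch of 49.2 kb in the first part held none. The widest, at 279 bp (3455563 to 3455841), lay near the midpoint of the gene, and 3.79% of all intervals were at least as wide. Of the 23, 13 had the narrowest width in the list, 201 bp, among them all 3 inside the gene and within 5 kb of its 5′ end as well as the one just upstream of start 1.

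Jak2 on chromosome 19 (29251803 to 29313095, 61.3 kb) had 3 intervals against a median of 5 (quartiles 3 and 7), the lowest percentile of the axis at 30.6. All of them lay at the 5′ side. One was at the start, one was centred 2119 bp inside the gene and one 13880 bp inside, at 22.6% of the span. The other 47.3 kb of the gene, 77.2% of its length, held no interval, nor did the 10 kb beyond its 3′ end. Rab38 and Mroh9, the genes closest to Jak2 in length, had 4 each. None of the Jak2 intervals had the narrowest width (203 to 227 bp).

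The STAT5 genes lie side by side on chromosome 11 in opposite directions, with 347 bp between their spans. Stat5b (100780731 to 100859004, 78.3 kb) had 9 intervals against a median of 6 (quartiles 3 and 9, percentile 73.2), and 8 of the 9 were wider than 201 bp. Its intervals were the widest of the axis. The 335 bp interval on start 1 (100850403 to 100850737) was the widest of the 72, and 0.696% of all intervals were at least as wide. Others measured 318 bp (100814415 to 100814732) and 301 bp (100828838 to 100829138), the first downstream of start 2 and the second between the starts. A 295 bp interval beyond its 3′ end was centred 43 bp from the start of Ghdc, a neighbouring gene, and cannot be assigned to either gene by position. The last of 3 equal parts of the Stat5b span held no interval. Without flanks its count was 6 (percentile 62.2). The only interval within 1 kb of an end of Stat5b was the one that crossed the 5′ end of Stat5a.

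Stat5a (100859351 to 100885169, 25.8 kb) had 7 intervals against a median of 3 (quartiles 2 and 5), at percentile 92.4, with 25 of 500 similar genes having more. Trpv2 and Tmem39b, nearest in length, had 4 and 6. Only 3 of the 7 touched the Stat5a span. One of these crossed its 5′ end (100859220 to 100859432), one ended just upstream of start 2, and one lay 11089 bp inside. The lower flank held the wide interval of Stat5b start 1. Beyond the 3′ end, a pair of 201 bp intervals was centred 506 and 1375 bp outside, between Stat5a and the neighbouring gene Stat3, and a 213 bp interval lay inside Stat3. Stat5a alone of the 9 had an interval within 1 kb of both ends, against 9.68% of protein-coding genes, and without flanks its count was 3 (percentile 73.8).

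A pair of windows from these genes, start 2 of each, also resembled each other in sequence. A local alignment of Stat5a start 2 with Stat5b start 2 matched 83 of 104 aligned columns (79.8% identity), and the longest run that the windows shared without a difference was 16 bases. Among all 84 pairs of windows from different genes this pair scored highest, at 116. The other pairs of a Stat5a with a Stat5b window scored 57, 30 and 27. The second highest of all, Jak2 start 1 with Stat5b start 1, had 61.5% identity over 239 columns, windows with 81.0% and 82.7% G and C. The aligned stretches are printed because an accessible interval lay on each of them, covering 63 of the 102 bases in Stat5a (chr11:100860381-100860482, plus strand) and 73 of the 102 in Stat5b (chr11:100822563-100822664, minus strand). Capitals mark bases identical in the alignment.
Stat5a start 2: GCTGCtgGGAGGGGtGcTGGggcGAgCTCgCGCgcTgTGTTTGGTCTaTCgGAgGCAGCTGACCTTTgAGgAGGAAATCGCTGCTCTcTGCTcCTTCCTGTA
Stat5b start 2: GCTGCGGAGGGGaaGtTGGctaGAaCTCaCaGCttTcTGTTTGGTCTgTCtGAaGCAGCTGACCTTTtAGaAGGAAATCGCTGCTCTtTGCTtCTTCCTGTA
Whether any reads of 1 copy were placed at the other was not tested.

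With flanks of 10 kb the genes of the inhibitors were all above the midpoint for their length, and for Cish most of the intervals lay outside the gene. Cish on chromosome 9 (107296659 to 107302784, 6.13 kb) had 5 against a median of 2 (quartiles 1 and 3), the highest percentile of the axis at 94.0, with 16 of 500 similar genes having more. Only the interval at its start lay inside the gene. On the upstream side a 204 bp interval was centred 29 bp from a start of Mapkapk3, a neighbouring kinase gene, and a 201 bp interval was centred 5549 bp from the Cish start. Downstream of the 3′ end a pair of intervals of 214 and 243 bp lay 328 bp apart, 5266 and 5823 bp beyond the end, overlapping no annotated gene. With flanks of 5 kb the Cish count was 1 and its percentile 38.2, below the midpoint, and with no flanks the count was 1 at percentile 63.3. Dtx3 and Myl3, the nearest in length, had 4 and 1.

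Socs2 on chromosome 10 (95383903 to 95417321, 33.4 kb), another SOCS family inhibitor whose loss gives oversized mice, had 6 intervals against a median of 4 (quartiles 2 and 5, percentile 80.0). They lay toward the upper-coordinate end. Of 4 inside the gene 3 were close together, at 74.2%, 91.4% and 98.4% of the span counted from the lower-coordinate end, and the lower flank held none. The interval nearest to an end was centred 543 bp inside the upper end, and the next 755 bp outside it. Fbxo41 and Galnt15, the genes closest in length, had 1 and 2. Strand for Socs2 was not used here, so upstream and downstream are not given.

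Bcl6 on chromosome 16 (23965050 to 23988866, 23.8 kb) had 5 intervals against a median of 3 (quartiles 1 and 4, percentile 81.7). It was the exception at gene ends, being the one gene without an interval within 1 kb of either end. The other 8 had one (61.5% of protein-coding genes). Of the Bcl6 intervals 3 lay inside the gene, 1 in each of 3 equal parts of the span, and the others were centred 2468 bp beyond the 3′ end and 7683 bp upstream of the 5′ end. They were narrow at 201 to 213 bp, with 3 of 5 at exactly 201 bp. Gm2832 and Neu2, nearest in length, had 2 and 5.

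Igf1 and Igfals, at the end of the chain, had intervals in contrasting places. Igf1 on chromosome 10 (87858265 to 87937047, 78.8 kb) had 13 intervals against a median of 6 (quartiles 3 and 9), at percentile 92.9, with 29 of 500 similar genes having more. Inside the gene were 12 of them, with 2, 8 and 2 in the first, middle and last of 3 equal parts. The median distance between neighbouring intervals was 4.88 kb and the longest stretch of the gene without one was 11.6 kb, 14.7% of the span, the smallest such share among the 9 genes. The widest were 297 bp (87873527 to 87873823, 12564 bp downstream of the start) and 293 bp (87926968 to 87927260, 9933 bp before the upper end). A pair of 201 bp intervals in the middle part lay 153 bp apart. Stat5b is of almost the same length and had 9, and Septin6 and Pkia, nearest to Igf1 in length, had 9 and 4.

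Igfals on chromosome 17 (24877844 to 24882011, 4.17 kb) is the shortest gene of the axis and had 4 intervals against a median of 2 (quartiles 0 and 3), at percentile 88.2. Only 1 lay inside the gene, on start 3. Upstream were a 225 bp interval centred 334 bp from the 5′ end and a 201 bp interval centred 2642 bp from it. The fourth, beyond the 3′ end, was centred 2 bp from a start of Spsb3, a neighbouring gene. Samt2b and Znrd1, nearest in length, had 0 and 2.

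**Figure D3:**
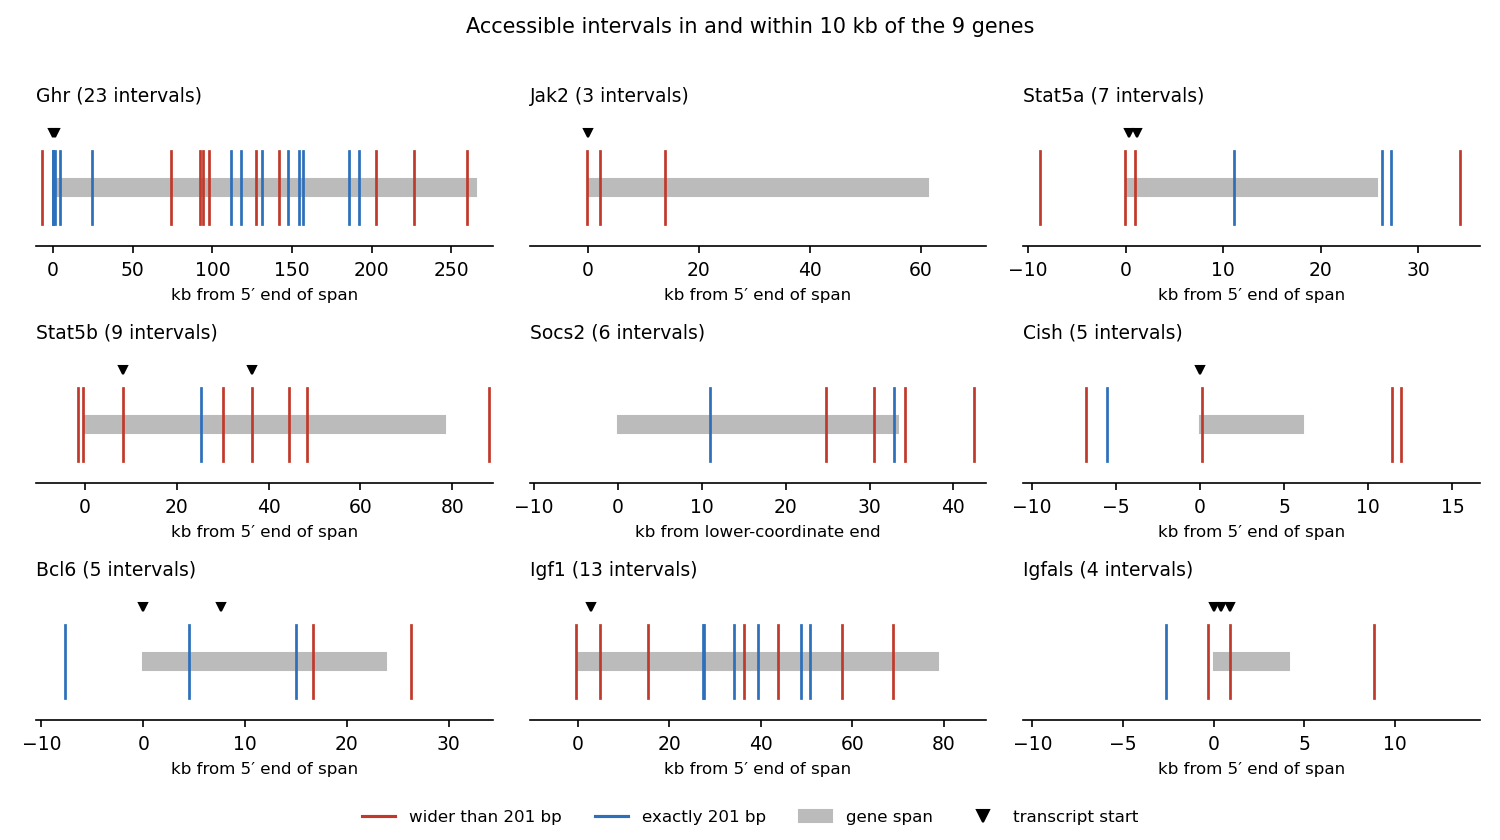
Position of every interval in and within 10 kb of the 9 genes, in kb from the 5′ end of the gene span (from the lower-coordinate end for Socs2), each panel with its own scale. Grey bars are gene spans, triangles transcript starts, and vertical lines interval centres, red for intervals wider than 201 bp and blue for exactly 201 bp, with line thickness not to scale. The 3 intervals of Jak2 sit at its 5′ side, and those of Ghr and Igf1 run through the gene with most in the middle of 3 equal parts.

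Across the 8 genes with a known strand, 15 intervals lay wholly inside the gene in the first of 3 equal parts of the span, 25 in the middle and 8 in the last part. Ghr and Igf1 gave 19 of the 25. No such split was made for other genes, so whether it is particular to these 8 is unknown. Outside the span, 10 kb was the limit of the rule. The outermost interval it took was the one near Ghdc, whose edge lay 9584 bp from Stat5b, and the nearest it left out was a 201 bp interval 10099 bp from the lower end of Igf1.

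Interval width is the one property besides position that the list carried. Widths of the 72 intervals ran from 201 to 335 bp with a median of 204 bp, against 203 bp for all intervals. Of the 72, 42 were wider than 201 bp (58.3%), against 53.8% of all intervals, which is close to the background. Genes differed among themselves. Medians per gene ran from 201 bp in Ghr and Bcl6 to 229 bp in Stat5b, with 213 bp in Stat5a and Igfals, 214 bp in Cish and 218 bp in Jak2. How the authors set interval widths is not stated in the sources used here.

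**Figure D4:**
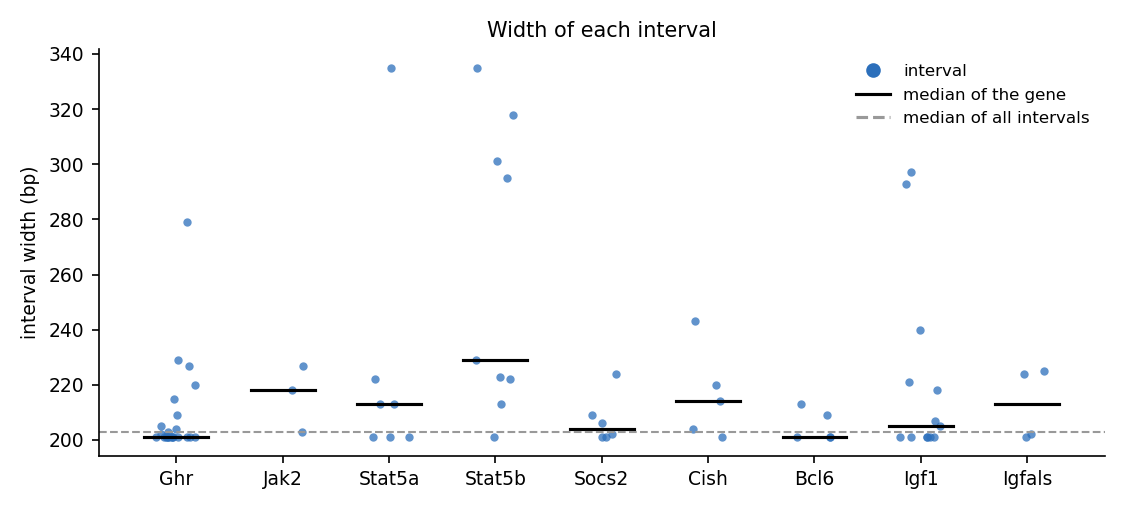
Width in bp (vertical axis) of each interval of the 9 genes, 1 point for each interval, with the median of the gene as a black line and the median of all intervals, 203 bp, as a dashed line. The vertical axis does not start at 0, because no interval is narrower than 201 bp. Stat5b holds 4 of the intervals of 295 bp or more, and the widest one appears in both Stat5a and Stat5b.

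Motifs were then searched in the promoter windows. The core of the STAT5 site, TTCNNNGAA, which reads the same on both strands, occurred in 5 of the 14 windows, in Cish, both windows of Bcl6 and windows 1 and 2 of Igfals, against 7.69% of 21263 windows of protein-coding genes. The related core with 4 bases between TTC and GAA, preferred by STAT6, occurred in none of the 14 and in 6.35% of all. The E-box CACGTG bound by clock factors occurred in 1, Bcl6 start 1, and in 7.84% of all. The ONECUT core ATTGAT, or ATCAAT on the other strand, occurred in none and in 6.54% of all. A match is only a match of letters, and no binding was measured.

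The stretches with STAT5 cores are shown with the core in capitals. Cish carried a pair of cores 2 bases apart at positions 1 and 12 counted from the start (chr9:107296639-107296698, plus strand). The second lay fully under the interval and the first outside it. Bcl6 start 2 carried 3 cores at positions -168, -122 and -88 (chr16:23981343-23981471, minus strand), none of them under an interval. The core in Igfals start 1 began at position -236 (chr17:24877594-24877636, plus strand) and lay under the 225 bp interval.
Cish start 1: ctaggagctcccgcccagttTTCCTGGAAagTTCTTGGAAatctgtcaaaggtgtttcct
Bcl6 start 2: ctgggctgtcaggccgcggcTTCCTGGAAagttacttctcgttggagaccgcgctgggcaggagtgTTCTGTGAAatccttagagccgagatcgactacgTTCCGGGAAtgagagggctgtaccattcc
Igfals start 1: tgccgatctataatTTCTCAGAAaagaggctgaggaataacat
Bcl6 start 1 and Igfals start 2 had 1 core each, neither under an interval. The windows of Ghr, Jak2, Stat5a, Stat5b and Igf1 held no match to this core.

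The other genes of the pathway were taken as 5 lists and described the same way. Over all protein-coding genes, 49.7% were above the 50th percentile and 24.6% at the 75th or above. Of the IGF receptors and binding proteins, 11 of 13 genes were above the 50th percentile for their length and 8 at the 75th or above, and the median percentile was 84.7. Of these genes, 8 of 13 had an interval at a gene end, against 61.5% of protein-coding genes, and 4 of 11 had one in a promoter window, against 52.1%. Igf1r, the IGF1 receptor gene, had 22 intervals (percentile 73.3) and Insr, the insulin receptor gene, 15 (81.4). Among 13 cytokine receptor, JAK and STAT genes 11 were above the midpoint and 6 at the 75th percentile or above, 12 had an interval at a gene end, and 10 of 12 had one in a promoter window. Prlr, the prolactin receptor gene, a relative of Ghr on the same chromosome, had 20 (percentile 85.5), and Jak1, a kinase related to Jak2, had 19 (95.3). Of 17 inhibitors and adaptors 12 were above the midpoint and 5 at the 75th percentile or above, the latter close to the share over all genes. Irs1, an insulin receptor substrate (10 intervals, percentile 91.2), and Ptpn1, a tyrosine phosphatase (10 intervals, 94.0), had the most.

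The hormone list stood lower. Of 8 genes for hormone ligands, releasing factors and their receptors, 2 were above the midpoint, against 49.7% of all protein-coding genes. Only 1 had an interval at a gene end, against 61.5%, and the median percentile was 27.0. That gene was Gh, the growth hormone gene, with 1 interval (percentile 31.1). None of the 6 with an entry had an interval in a promoter window, against 52.1%. Prl, the prolactin gene, and Igf2, a fetal growth factor gene, had no interval within 10 kb, whereas Ghrhr had 5 (percentile 87.8) and Sst 2 (65.4). The 20 genes of the growth hormone dependent sex-biased liver programme were spread over the whole range, with a median percentile of 46.2. Of them 9 were above the midpoint and 5 at the 75th percentile or above. Both counts were close to the shares over all protein-coding genes, 49.7% and 24.6%. An interval lay at a gene end in 10 of the 20, against 61.5%. In a promoter window 4 of the 14 with an entry had one, against 52.1%. Genes of the male and of the female programme were not separated in this list. Cyp7b1, an oxysterol hydroxylase, had 20 intervals (percentile 85.5) and Cux2, a transcription factor gene with female-biased expression in mouse liver, 9 (40.2), while Cyp2a4 and Ugt2b38 had none. Other members of multi-copy families had few or several intervals. Ugt2b1 had 5 (percentile 87.2) and Mup20 4 (48.2), while Cyp4a12a had 2 (26.0) and Cyp2b9 and Sult2a1 1 each (10.1 and 11.7). No link between gene copies and interval number was tested.

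**Figure D5:**
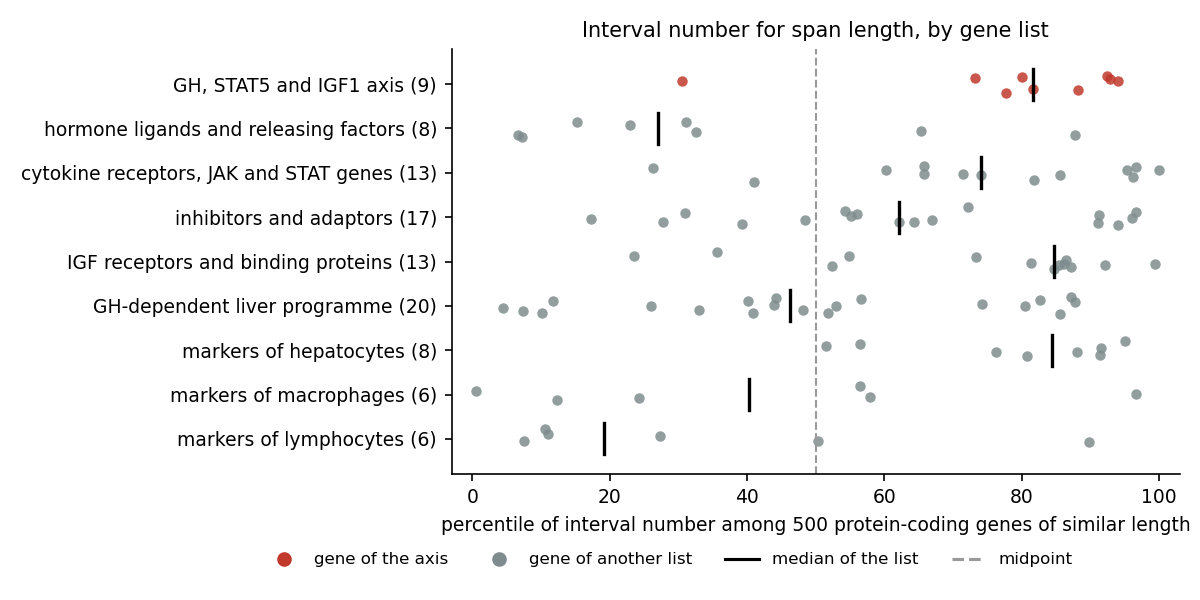
Percentile of each gene's interval number among 500 protein-coding genes of similar span length (horizontal axis), by list, with the number of genes in parentheses. Red points are the 9 genes of the axis, grey points genes of the other lists, black lines list medians and the dashed line the midpoint. The axis has 8 of 9 points right of the midpoint, with Jak2 at 30.6, and the ligand list has 2 of 8.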

How the data were processed

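Livers were profiled by ATAC-seq in C57BL/6J and 129S1/SvImJ mice, 3 of each, per the labels. The authors deposited a single list with 3 columns, chromosome, start and end, in which the positions are not counts, scores or signal. No column names a library or strain, so the strain comparison was not run. The submitters' processing notes name fastp, Bowtie2, HOMER and mm10 without versions, and of the peak threshold, duplicate filter and read-end shift nothing is stated.

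Starts were converted to 1-based positions. Intervals overlapping a window by at least 1 bp were counted with Python 3.11.15, numpy 2.4.6 and pandas 2.3.3 over 21887 protein-coding genes of a RefSeq table of GRCm38.p6, using each span with 10 kb to either side, gene ends with 1 kb to either side and 300-base promoter windows. Windows were aligned locally with Biopython 1.88 (match 2, mismatch -2, gap opening -5, extension -1). Counting and ranking were checked on made-up intervals with known answers. No p-values were computed, because genes and intervals are not replicates.

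The members and lists were chosen with earlier results of these data known. Genes named are the 9 members, their neighbours, the 2 genes nearest in length to each, and from each list the 2 with the most intervals and up to 2 with none. Markers, and genes named as exceptions, were outside this rule. The 100 bp limit that chose the windows printed was set after the distances were seen. Depth per library is unknown.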

Additional observations from a re-analysis of the deposited data

How the results depend on the processing

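Interval numbers were recomputed under 14 alternatives, and 77 of 96 values stayed within 1.5 times the original. Of the 19 that moved, 16 were numbers of single genes. The others were the genes at the 75th percentile or above and the intervals of the 9 genes. Genes at the 75th percentile or above numbered 4 with flanks of 0 kb and 3 with 50 kb, against 7 with 10 kb. The shares over all protein-coding genes were 22.4%, 25.0% and 24.6%. The intervals were 42 in place of 72 when only those wider than 201 bp were kept. Genes of the axis with an interval, with one at an end, with one in a promoter window and above the midpoint stayed within 1.5 times under every alternative run for each. Of the percentiles, that of Cish moved furthest, to 38.2 with flanks of 5 kb against 94.0 with 10 kb, which put it below the midpoint. With flanks of 50 kb Bcl6 was at percentile 54.9, Socs2 at 65.3, Cish at 66.5 and Igfals at 68.0. When only intervals wider than 201 bp were kept, Ghr was at 65.2, Jak2 at 51.3 and Bcl6 at 56.1.

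No paired analysis was possible because the list gives no value per library, and leaving out libraries was not run for the same reason. No score allowed a stricter peak threshold. Depth is unknown, so a stretch without an interval is one where none was listed, not one shown to be closed.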

Other observations

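Long noncoding RNA genes lay at several of the 9 genes, and no interval overlapped a promoter window of the 6 with an entry in the RefSeq table of starts. At 4 of them an interval was centred within 1 kb of a start. Igf1os starts inside Igf1 and runs in the opposite direction, and the 240 bp interval nearest the 5′ end inside Igf1 was centred 369 bp from its start. 5730420D15Rik begins 54 bp beyond the upper end of Socs2, with the nearest interval centred 597 bp from its start. Gm33230 lies within Socs2, with an interval 343 bp from its start. Gm41549 overlaps the 5′ end of Igfals on the opposite strand, with an interval 559 bp from 1 of its 2 starts. At Gm41829, near Jak2, and Gm41254, which overlaps Ghr, the nearest interval of the member gene was centred 6250 and 24670 bp from the start. Of the 72 intervals, 15 overlapped the span of a gene outside the 9, so assignment by position alone is ambiguous for them.

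Igfbp1, a fasting-induced IGF binding protein gene of 4.76 kb, had 6 intervals against a median of 2 among genes of similar length (percentile 99.4). Epor, the erythropoietin receptor gene, had 5 against 2 (percentile 96.2). These genes were picked after their values were seen and carry no test.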
